A study of Mus musculus with 9 samples.

Results

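The genes described are 10 of the 49603 mouse genes in the reference table: the SUN protein genes Sun1, Sun2, Sun3, Sun5 and Spag4, the nesprin genes Syne1, Syne2 and Syne3, and the head-tail coupling genes Pmfbp1 and Spata6. Every interval of both deposited peak lists that touched one of these genes, or the 2 kb on either side of it, was taken. That gave 23 intervals from capture with probes against the long noncoding RNA Gm4665 and 4 from capture with LacZ probes, the control. The group was chosen by the fold of the Gm4665 interval at Sun5, which was already known to be high, so that fold is a description and supports nothing further.

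SUN proteins sit in the inner nuclear membrane and bind nesprins of the outer membrane through the perinuclear space, forming the LINC complex that ties the nucleus to the cytoskeleton. In spermatids such bridges help shape the sperm head against the manchette, a transient skirt of microtubules. Others anchor the tail to the base of the nucleus through the head-tail coupling apparatus. Loss of SUN5, PMFBP1 or SPATA6 is known to give sperm whose heads and tails separate.

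Wild-type mice of the ICR strain, aged 35 days after birth, gave the testes from which the germ cells were taken. The 3 groups were Gm4665 probes (titled LncRNA-20), LacZ probes and input DNA, with 3 replicates each. One protocol text, which mentions only Gm4665 probes, is given for all 9 samples, so the other groups rest on the sample titles, and nothing says whether replicates came from separate animals. The files hold captured DNA and no expression, so neither the purity of the germ cells nor their stages could be checked against markers.

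Each value is the authors' fold enrichment over input at 1 interval in 1 replicate, as a linear ratio. Every listed interval has a fold in all 3 replicates, and an interval that is not listed has no value, so absence from a list is not a measurement of 0. The Gm4665 list held 38711 intervals with a median mean fold of 9.99, and the LacZ list 9448 with 14.1. The lists were normalized separately and each holds 1 set of positions for 3 replicates, so no test between probe sets was made. Library totals were not used here. The read coverage at the summit, given once per interval, was 16 to 323 over the 23 Gm4665 intervals (median 49.0).

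Of the 10 genes, 6 held a Gm4665 interval and 2 held a LacZ interval. Sun5, Syne3, Pmfbp1 and Spata6 held Gm4665 intervals only, Syne1 and Syne2 held both kinds, and Sun1, Sun2, Sun3 and Spag4 held neither. Among all genes, 27.1% held a Gm4665 interval and 10.6% a LacZ interval by the same rule, and among the 21779 protein-coding genes 39.3% and 16.9% did. A Gm4665 interval without a LacZ interval was found in 28.2% of protein-coding genes, beside these 4 of 10.

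The counts followed gene length. The 4 genes over 100 kb (Syne1, Syne2, Pmfbp1 and Spata6) carried 21 of the 23 Gm4665 intervals and all 4 LacZ intervals, and the 6 shorter genes carried 2 and 0. Over 100 kb, 91.4% of protein-coding genes held a Gm4665 interval and 56.8% a LacZ interval. From 20 to 100 kb the shares were 54.1% and 20.5%, and 1 of Sun1, Sun3 and Syne3 held a Gm4665 interval and none a LacZ interval. Under 20 kb they were 19.1% and 6.29%, and 1 of Sun2, Sun5 and Spag4 held a Gm4665 interval and none a LacZ interval. Per length, the 10 genes with their flanks carried 17.2 Gm4665 intervals per Mb (exact Poisson 95% interval 10.9 to 25.8) against 15.7 per Mb over the autosomes. For LacZ the densities were 2.99 per Mb (0.815 to 7.65) and 3.84 per Mb. Both intervals hold the autosomal value and cover counting error only.

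Sun5 encodes a SUN protein made in spermatids that anchors the coupling apparatus to the nuclear envelope. The gene (76407) lies on the minus strand of chr2:153856188-153871365 in mm10 and held 1 Gm4665 interval, chr2:153852086-153858521. Its fold was 91.0, 86.4 and 108 in replicates 1, 2 and 3 (mean 95.1 ± 11.2, SD, n = 3). These are the highest folds of each replicate over 6 repeated rows of the interval, described below. So read, all 3 values lay far above the other intervals of the group, the next of which had a mean fold of 41.4. With the lowest folds kept, the Sun5 mean was 34.3, below that 41.4. Relative to the list's median fold, Sun5 was 8.0 times as high in replicate 1, 10.2 times in replicate 2 and 10.5 times in replicate 3. It ranked 17, 13 and 7 of 38711 by the single replicates and 11 by the mean. Coverage at its summit was 323, against a list median of 36.0, and 99.9% of intervals had less.

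The Sun5 interval lay at the 3' end of the gene and not at its start. Of its 6436 bp, 2334 bp (36.3%) lay inside Sun5, covering 15.4% of the gene, and 4102 bp lay beyond the 3' end. The summit was 127 bp past the annotated 3' end, and the near edge was 12563 bp from the annotated start. It was the third widest interval of the list, which has a median width of 582 bp. No other gene in the reference table came within 2 kb of it. The nearest, Efcab8, lay 7334 bp away.

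The Sun5 start itself was therefore outside every listed interval of both probe sets. The promoter windows below are the 250 bases before the annotated start of Sun5 and of 3 further genes whose products act in spermatids, shown because regulatory regions were the stated interest of the study and none of these was covered. Sequences are from RefSeq in GRCm38.p6, the assembly that mm10 names, on the strand of the gene, 5' to 3'. Capitals mark TGACG or its reverse complement CGTCA, the core of the cAMP response element, through which the activator CREM is known to switch on spermatid genes.
Sun5 (chr2:153871085-153871334, minus strand): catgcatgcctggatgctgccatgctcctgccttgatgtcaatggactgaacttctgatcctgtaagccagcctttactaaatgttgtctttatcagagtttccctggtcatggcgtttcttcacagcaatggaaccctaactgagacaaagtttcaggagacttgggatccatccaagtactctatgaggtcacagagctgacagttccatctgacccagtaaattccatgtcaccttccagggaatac
Spag4 (chr2:156064963-156065212, plus strand): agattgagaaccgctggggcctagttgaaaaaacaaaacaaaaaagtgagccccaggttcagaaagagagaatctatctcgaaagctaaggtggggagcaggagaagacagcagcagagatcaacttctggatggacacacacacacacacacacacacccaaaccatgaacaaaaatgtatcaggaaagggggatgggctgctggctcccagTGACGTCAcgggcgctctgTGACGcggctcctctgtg
Sun3 (chr11:9048992-9049241, minus strand): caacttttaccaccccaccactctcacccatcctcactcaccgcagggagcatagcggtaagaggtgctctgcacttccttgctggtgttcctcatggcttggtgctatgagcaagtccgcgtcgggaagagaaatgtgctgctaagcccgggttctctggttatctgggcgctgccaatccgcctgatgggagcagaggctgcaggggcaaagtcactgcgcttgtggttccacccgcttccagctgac
Spata6 (chr4:111719760-111720009, plus strand): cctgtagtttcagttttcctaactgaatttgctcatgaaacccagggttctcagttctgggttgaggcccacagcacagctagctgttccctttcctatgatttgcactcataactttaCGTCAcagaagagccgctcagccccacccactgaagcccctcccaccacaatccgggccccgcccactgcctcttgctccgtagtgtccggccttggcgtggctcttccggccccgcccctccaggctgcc

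The full element TGACGTCA, searched on both strands, began 37 bases before the Spag4 start and was in no other window of the 10 genes. It was present in 1.55% of 32851 promoter windows of this length. TGACG, searched on both strands and contained in the full element, was in 3 of the 14 windows of these genes (Sun1, Spag4 and Spata6), against 17.8% of all windows. GTTGCC, part of the X-box bound by RFX factors and searched on both strands, was in 0 of the 14, against 10.4%. The table holds windows for 9 of the 10 genes; Pmfbp1 has none there. The Sun5 window held 1 CpG, against a median of 6 over all windows. In the window at the first listed start, Sun1, Sun2 and Syne2 held 30, 31 and 26, Sun3 10, Spata6 9, Spag4 and Syne1 7 each, and Syne3 4. These are descriptions of letters and say nothing of which factors bind.

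**Figure D1:**
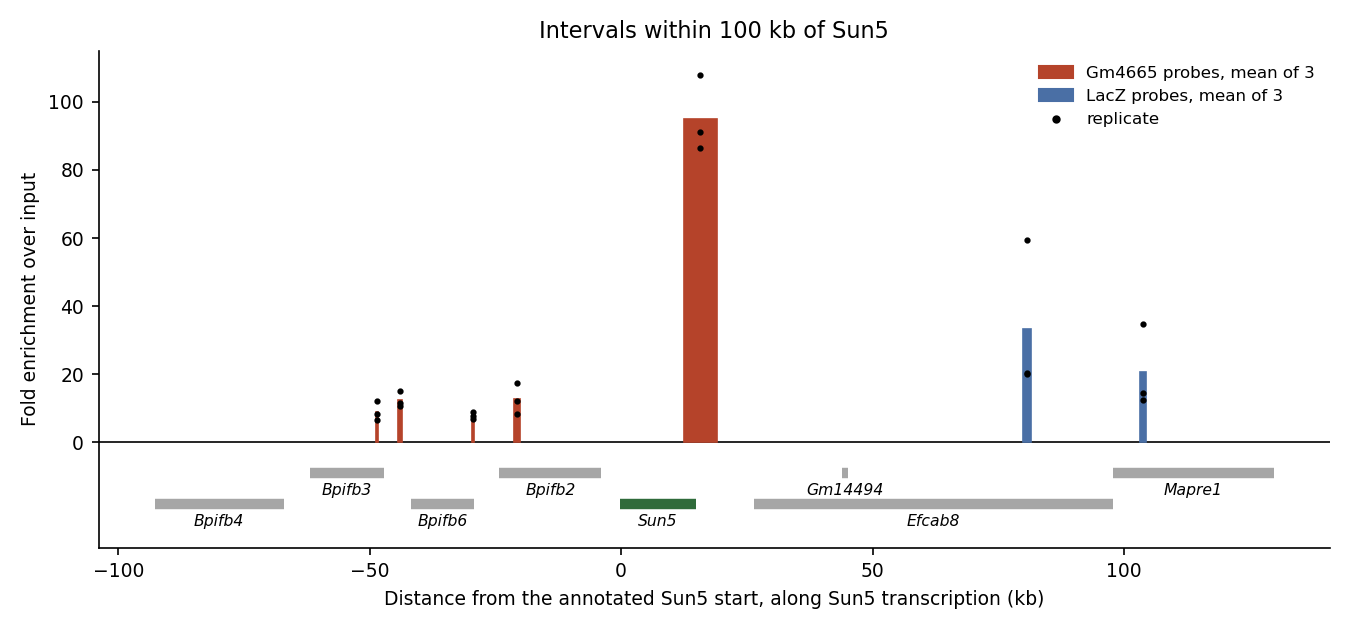
Fold enrichment over input (y axis) of every listed interval within 100 kb of Sun5, placed by distance in kb from the annotated Sun5 start along its direction of transcription (x axis). Bars are means of 3 replicates drawn to width, red for Gm4665 probes and blue for LacZ probes, dots are replicates, and gene spans are drawn underneath. The Sun5 interval, with the highest fold of repeated rows kept, has a mean fold of 95.1. It spans 12.6 to 19 kb past the start, across the 3' end of the gene.

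The other Gm4665 intervals around Sun5 had folds near the list median, as the map of intervals by distance shows. Within 100 kb the Gm4665 list held 4 other intervals, all on the 5' side, in or beside Bpifb2, Bpifb6 and Bpifb3, which belong to a family of secreted lipid-binding proteins. The nearest, 32667 bp from the Sun5 interval and in Bpifb2, had folds of 12.3, 8.24 and 17.3 (mean 12.6 ± 4.56, SD, n = 3). The 4 means ran from 7.79 to 12.6, around the list median of 9.99. The 3' side held no other Gm4665 interval. It held both LacZ intervals of the region, at Efcab8 with folds of 59.3, 20.4 and 20.2 (mean 33.3 ± 22.5, SD, n = 3, against a LacZ list median of 14.1) and at Mapre1, a microtubule plus-end gene, with 34.7, 12.5 and 14.4. Replicate 1 was the highest at both, as in 95.9% of the LacZ list. The Efcab8 interval was the nearer one, 60958 bp from that of Sun5.

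The deposited list gives the Sun5 interval in 6 rows. All 6 share the same position, summit coverage and replicate 1 fold of 91.0. They pair each of 3 folds for replicate 2 (4.81, 6.27 and 86.4) with each of 2 folds for replicate 3 (6.99 and 108). The values above keep the highest fold of each replicate. With the lowest kept instead, the mean is 34.3 and the rank 1620, so the standing of Sun5 rests on which of its rows is read. In the whole list 383 intervals were repeated. The replicate 1 fold was constant in 383 of them, while replicate 2 varied in 209 and replicate 3 in 285. Sun5 was 1 of 5 intervals with at least 6 rows. Where in the 6436 bp the folds of replicates 2 and 3 lie is not stated in the labels or headers.

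Summit coverage plus 1 divided by the replicate 1 fold gives the denominator of that fold, if the coverage is that of replicate 1. Any constant added to the background is part of this denominator, so it is not the background itself. At Sun5 the denominator was 3.56, which was 1.20 times the list median of 2.97. The lowest value in the list was 2.93. Of the 23 intervals of the group, 14 stood within 1% of it, as did 48.0% of the list. The highest values in the group, 5.49 and 6.24, were in Pmfbp1.

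Over protein-coding genes, the 5 Gm4665 intervals most like that of Sun5 in the log2 folds of 3 replicates were ranked by Euclidean distance. The highest fold of repeated rows was kept, and the distances rest on that choice. They lay at Grin2a (mean 106 ± 16.0, distance 0.35), Stx11 (113 ± 5.23, distance 0.49), Ryr2 (96.9 ± 20.9, distance 0.54), Osbpl10 (116 ± 14.0, distance 0.57) and Ankrd27 (83.9 ± 25.2, distance 0.71; SD, n = 3 each). The Osbpl10 interval is the one that covers the Gm4665 locus itself. It was 26100 bp wide and stood in 16 rows. The other 4 were 1877 to 3184 bp wide, narrower than that of Sun5. Of these, Grin2a stood in 2 rows.

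The other SUN genes held no interval of either list. Sun1 and Sun2 encode the widely expressed SUN proteins, of which SUN1 is also known to move telomeres in meiosis. Sun3 and Spag4, the gene of SUN4, encode spermatid proteins that link the nucleus to the manchette. The nearest Gm4665 interval was 14054 bp from Spag4 (mean fold 6.41 ± 2.16), 32639 bp from Sun2 (27.2 ± 1.88), 59770 bp from Sun1 (19.7 ± 6.36) and 93929 bp from Sun3 (4.48 ± 0.639; SD, n = 3 each). At Sun1 and Sun3 a LacZ interval was closer, at 20472 bp (10.9 ± 4.07) and 18485 bp (15.3 ± 5.36; SD, n = 3 each). For genes of their lengths, 4.31 to 49.3 kb, holding no Gm4665 interval was common, as the shares above show.

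**Figure D2:**
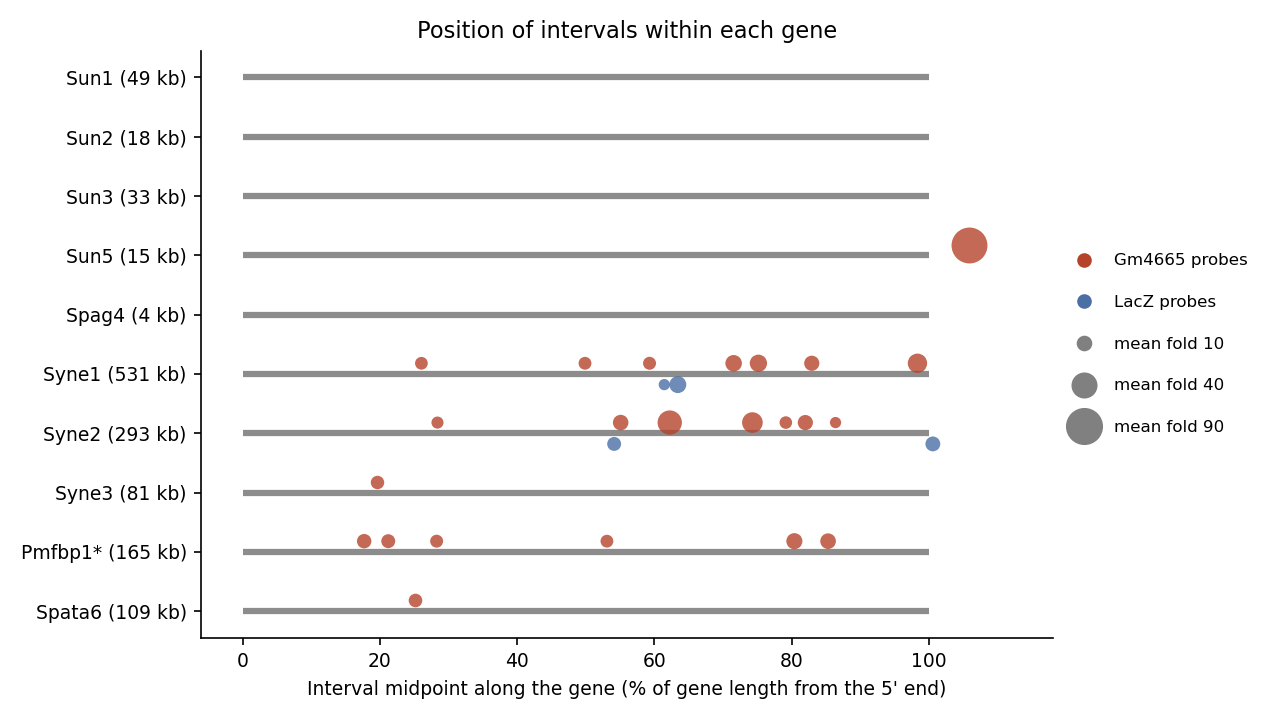
Midpoint of each interval as a percentage of gene length from the 5' end (x axis) for the 10 genes (rows, with length in kb); Pmfbp1, marked with a star, is drawn by ascending coordinate because its strand is not in the tables used. Red circles above each gene are Gm4665 intervals and blue circles below are LacZ intervals, with area growing with mean fold. The Sun5 circle lies past 100% and no circle lies at a 5' end.

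Syne1 encodes nesprin-1, a giant outer nuclear membrane protein whose long forms bind actin. The gene (64009, minus strand, chr10:5020192-5550692) held 7 Gm4665 intervals, 13.1 per Mb (exact Poisson 95% interval 5.27 to 27.0). The strongest, chr10:5028636-5029799, lay near the 3' end, 98.3% along the gene, with folds of 31.0, 15.5 and 27.8 (mean 24.8 ± 8.19, SD, n = 3). Replicate 2 was the low one there. Taken from the 5' end, the 7 mean folds were 8.44, 8.67, 8.94, 17.0, 19, 13.7 and 24.8, so the 3 intervals nearest the 5' end were the weakest. The first of them lay 26.1% along the gene. This order was seen after the values were known, and it has no test.

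The LacZ list had 2 intervals in Syne1, 63.4% and 61.4% along the gene. The first had folds of 31.6, 10.5 and 12.1, with replicate 1 far above the others, and the second had 7.02, 5.23 and 5.01. The mean of the first was 18.1 ± 11.8 (SD, n = 3) and 11.3 without replicate 1. Only 0.931% of LacZ intervals had a lower mean than the second. Neither overlapped a Gm4665 interval. The closest approach was 11091 bp.

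Syne2 encodes nesprin-2, a second giant nesprin. The gene (319565, plus strand, chr12:75818318-76110928) also held 7 Gm4665 intervals, 23.6 per Mb (exact Poisson 95% interval 9.49 to 48.6). The strongest, chr12:75999538-76001226, had folds of 42.8, 41.5 and 39.8 (mean 41.4 ± 1.5, SD, n = 3), higher than 97.6% of the list. Its replicates differed by less than those of any other Gm4665 interval of the group, with a coefficient of variation of 3.62%, against a group median of 26.6% and a list median of 21.9%. It was 1689 bp wide and lay 62.2% along the gene. The next, chr12:76035120-76036103, had 34.8, 21.3 and 30.02 (mean 28.7 ± 6.86, SD, n = 3), higher than 92.8% of the list. Here replicate 2 was again the lowest.

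The remaining 5 Syne2 intervals had means of 5.69 to 14.5. The weakest, at 6.32, 6.80 and 3.96, exceeded only 6.97% of the list. Of the 7, 6 lay past 50% of the gene length, and in Syne1 5 of 7 did. So did the LacZ intervals, 2 of 2 at each gene. No share over other genes was taken for these positions, and they were not tested. LacZ intervals lay 54.1% along Syne2, with folds of 19.9, 7.73 and 5.04, and 1049 bp past its 3' end, with 20.9, 8.05 and 9.80. The mean of the first was 10.9 ± 7.91 (SD, n = 3) and 6.39 without replicate 1. It was 1959 bp from a Gm4665 interval with folds of 21.6, 10.4 and 11.6 (mean 14.5 ± 6.11, SD, n = 3). That was the shortest gap between the lists at any of the 10 genes, and 0 of the 23 Gm4665 intervals overlapped a LacZ interval.

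Syne3 encodes nesprin-3, which binds plectin and so reaches intermediate filaments. The gene (212073, minus strand, chr12:104929933-105010587) held 1 Gm4665 interval, chr12:104994525-104995143, with folds of 14.7, 8.98 and 6.0 (mean 9.88 ± 4.4, SD, n = 3). Its replicates spread widely, and its mean stood near the middle of the list, above 49.3% of intervals. It lay 3534 bp downstream of the annotated start, the closest of any interval to a start in this group. That start, at 104998677, is inside the gene span. From the 5' end of the span the interval midpoint was 15.8 kb away, 19.5% along the gene. A further Gm4665 interval lay just outside the flank, 3934 bp past the 3' end, with 11.1, 17.7 and 18.5 (mean 15.8 ± 4.04, SD, n = 3).

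Pmfbp1 encodes a protein of the sperm neck that is known to bind SUN5 and SPATA6. The gene (56523, chr8:109377815-109542642) held 6 Gm4665 intervals, 35.5 per Mb (exact Poisson 95% interval 13.0 to 77.4), the densest of the genes over 100 kb. That interval still holds the autosomal 15.7 per Mb. None was strong: mean folds ran from 8.64 to 15.9. The highest, chr8:109509744-109510837, had 10.9, 18.3 and 18.4 (mean 15.9 ± 4.31, SD, n = 3), with replicate 1 the lowest. The next, chr8:109517851-109518910, had 17.3, 10.2 and 16.9 (mean 14.8 ± 3.97, SD, n = 3), with replicate 2 the lowest. By coordinate, 3 intervals lay 17.7% to 28.3% from the lower end of the gene, 1 at 53.1% and 2 at 80.4% and 85.3%. The nearest LacZ interval lay 65161 bp from the gene.

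Spata6 encodes a protein needed to build the connecting piece between sperm head and tail. The gene (67946, plus strand, chr4:111719951-111829142) held 1 Gm4665 interval, chr4:111746946-111747869, 25.1% along the gene. Its folds of 8.35, 11.2 and 11.1 lay close together (mean 10.2 ± 1.63, SD, n = 3) and stood above 51.6% of the list. A stronger one lay before the start, 2875 bp outside the gene and so beyond the 2 kb flank, with 22.8, 17.7 and 22.6 (mean 21.0 ± 2.91, SD, n = 3). It ended 2684 bp from the promoter window printed above. The nearest LacZ interval lay 253193 bp from Spata6.

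**Figure D3:**
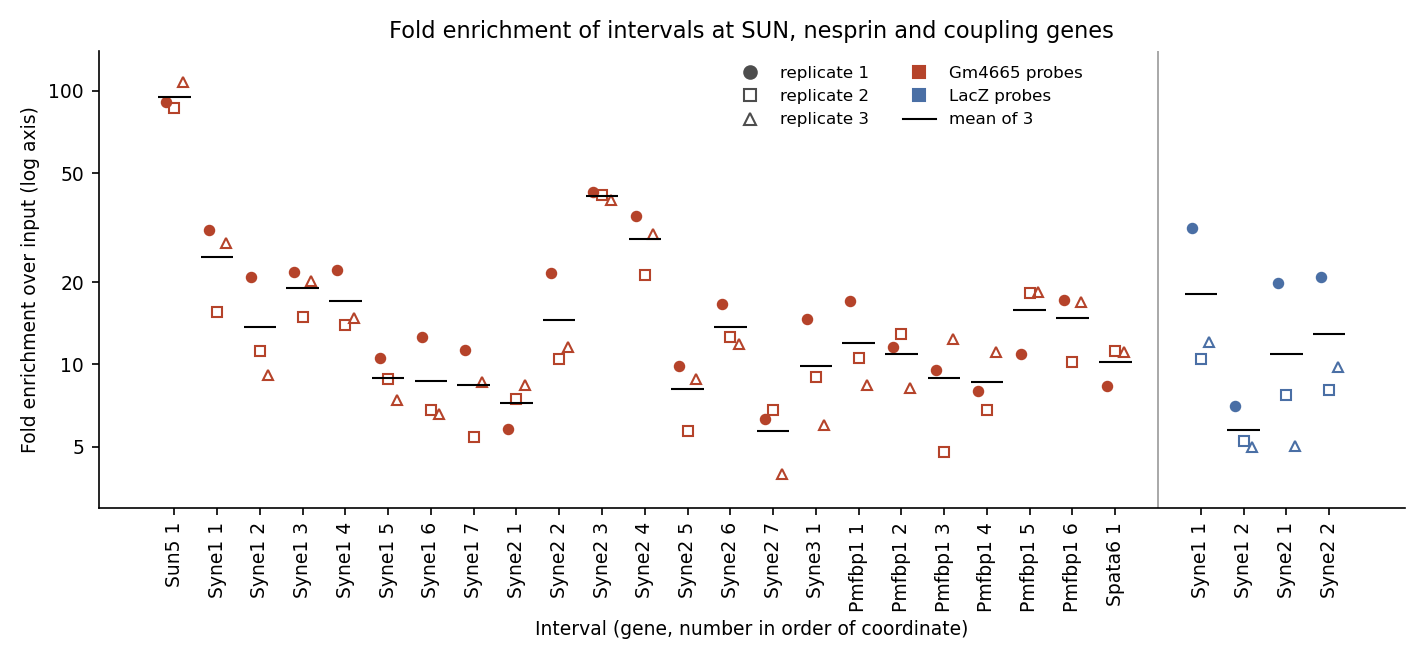
Fold enrichment over input on a log axis (y axis) for the 23 Gm4665 intervals and, right of the grey line, the 4 LacZ intervals at the 10 genes, numbered within each gene by ascending coordinate (x axis). Filled circles, open squares and open triangles are replicates 1, 2 and 3, and black bars are means. With the highest fold of repeated rows kept, Sun5 is at 86.4 to 108 in all replicates. Replicate 1 is the highest in 4 of 4 LacZ intervals.

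Across the group, gene starts held no interval. Of the 9 genes with an annotated start, 0 had a Gm4665 or LacZ interval within 2 kb of one, where 8.42% and 2.71% of 17492 protein-coding genes did. At the 3' end, within 2 kb, 1 of 9 had a Gm4665 interval (Sun5) and 1 had a LacZ interval (Syne2), where 7.64% and 2.51% did. The printed promoter windows, with their first 50 transcribed bases added, were touched in 0 of 9 genes by either list, where 1.76% and 0.8% of the same genes were. With 9 genes, counts of 0 or 1 are near what these shares give.

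The median mean fold was 12 over the 23 Gm4665 intervals, against 9.99 in the list, and 14 of the 23 lay above the list median. Without Sun5 the median was 11.5. For LacZ the median over 4 intervals was 11.9, against 14.1 in its list, and 1 of 4 lay above. Without replicate 1 the LacZ median was 7.66. Replicate 1 was the highest in 15 of 23 Gm4665 intervals, where 56.3% of the list had that order, and in 4 of 4 LacZ intervals. The plot of folds within each list shows 21 of the 23 Gm4665 intervals below a mean fold of 30, inside the body of the list. The strongest of Syne2 is in its upper tail. Sun5, with the highest fold of its repeated rows kept, is further out in that tail, at rank 11.

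**Figure D4:**
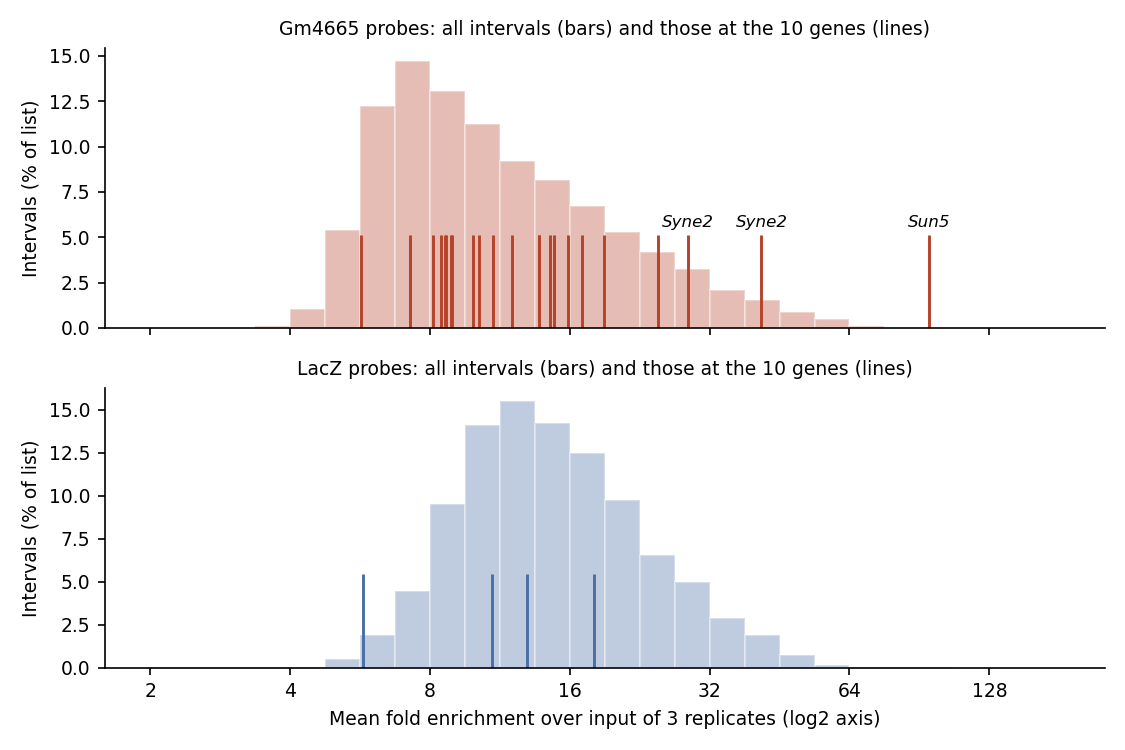
Share of all intervals of a list (y axis, percent) by mean fold enrichment of 3 replicates on a log2 axis (x axis), for Gm4665 probes above and LacZ probes below. Vertical lines mark the intervals at the 10 genes. With the highest fold of repeated rows kept, Sun5 at 95.1 stands apart from the other lines, the next of which is at 41.4.

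Partner genes were counted in 3 further lists of 20 genes, all found in the table. Of 20 LINC complex and nuclear envelope partners, 12 (60%) held a Gm4665 interval and 1 (5%) a LacZ interval, against 39.3% and 16.9% of protein-coding genes. Their median length was 24.2 kb. The share of protein-coding genes with a Gm4665 interval was 19.1% under 20 kb, 54.1% from 20 to 100 kb and 91.4% over 100 kb. For LacZ the shares were 6.29%, 20.5% and 56.8%. The list holds genes of all 3 classes, so no single share is its background. Whether the 60% and 5% differ from a length-matched share was not tested. The highest means were at Lmnb1, the gene of lamin B1 of the nuclear lamina, with folds of 42.8, 34.4 and 39.5 (mean 38.9 ± 4.25), and at Dpy19l2, which anchors the acrosome to the nucleus, with 34.8, 15.8 and 31.7 (mean 27.4 ± 10.2; SD, n = 3 each). Tor1a and Tor1b, neighbouring torsin genes of the nuclear envelope lumen, shared an interval with 23.9, 24.1 and 20.3 (mean 22.8 ± 2.14, SD, n = 3), so they count as 1 position. The LacZ interval was at Tmpo, the gene of LAP2, with 9.20, 6.27 and 6.75.

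Of 20 genes of the coupling apparatus and sperm neck, 8 (40%) held a Gm4665 interval and 4 (20%) a LacZ interval. Among all protein-coding genes 39.3% and 16.9% did, and among those of 20 to 100 kb 54.1% and 20.5%. The median length of this list was 33.3 kb, and it too holds genes of all 3 length classes. The highest Gm4665 means were at the long centrosomal genes Cep112 (36.1 ± 9.27) and Cep128 (31.9 ± 1.46), then Tsga10 (15.9 ± 2.43), a sperm tail gene, and Poc1b (13.4 ± 7.46; SD, n = 3 each), a centriole gene. Cep112 and Cep128 also held LacZ intervals, 4 and 2 of them. The strongest LacZ interval of Cep112 had folds of 69.4, 18.6 and 24.1 (mean 37.4 ± 27.9), and that of Cep128 had a mean of 11.5 ± 7.01 (SD, n = 3 each). Of 20 manchette and transport genes, 13 (65.0%) held a Gm4665 interval and 7 (35.0%) a LacZ interval, with a median length of 73.8 kb. From 20 to 100 kb, 54.1% and 20.5% of protein-coding genes did, but this list also holds shorter and longer genes. Among the highest Gm4665 means were Spag6l (55.4 ± 7.87) and Spag16 (34.0 ± 2.93), both of the axoneme's central apparatus, and Map7 (44.7 ± 9.28, SD, n = 3 each), which binds microtubules. LacZ intervals were also listed at Spag6l (strongest mean 11.7 ± 6.46), Spag16 (16.2 ± 15.4) and Map7 (9.91 ± 6.69, SD, n = 3 each). The strongest LacZ interval at any of the 60 genes was at the intraflagellar transport gene Ift88, with folds of 99.4, 53.3 and 74.4 (mean 75.7 ± 23.1). Ift88 also held 2 Gm4665 intervals, the stronger with a mean of 20.2 ± 6.23 (SD, n = 3 each). All 12 genes over 100 kb in the 3 lists held a Gm4665 interval, where 91.4% of protein-coding genes of that length did, so this count is near the background.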

How the data were processed

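DNA captured with Gm4665 or LacZ probes and input DNA were measured, 3 replicates each, and only the 2 deposited peak lists were analysed. Intervals were called with MACS2 per the file names, on mm10 per the submitters' processing notes; version, settings, aligner and the way replicates were joined: not given in the sources used here, headers included. Each row holds the authors' linear fold ratio over input for each replicate, per the file headers, and a deposited coverage signal (pileup) whose replicate is not named.

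Rows that repeated an interval (649 Gm4665, 165 LacZ) were joined, keeping the highest fold of each replicate. Chromosomes 1 to 19, X and Y were used, with coordinates 1-based. Gene spans came from RefSeq GRCm38.p6, leaving out 340 entries that start below 3 Mb and carry scaffold coordinates, and starts and strands from its promoter table. An interval counted for a gene when it overlapped the span with 2 kb flanks by 1 bp. Values are mean ± SD over 3 replicates, computed with Python 3.11.15 and pandas 2.3.3. Interval counting was tested on simulated data. No test was run, since the genes and lists were chosen with earlier results of these data known. Genes named are the 10, the nearest intervals beyond the flank, genes within 100 kb of Sun5, the 5 most like Sun5 and up to 4 per partner list by the mean fold of their strongest interval of either list, besides Tmpo, the only one on its list with a LacZ interval. The values of 1 partner gene, which is in the counts, are not reported here.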

Additional observations from a re-analysis of the deposited data

How the results depend on the processing

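Counts of genes and intervals kept within 1.5 times their value with no flank and with 5 kb or 10 kb flanks. They also did with the interval midpoint or 50% of its length required inside, and with a fold of at least 4 in every replicate. Keeping the lowest fold of repeated rows cannot change these counts, because no fold limit was set there. Requiring a fold of at least 10 in every replicate, which leaves fewer intervals by construction, gave 10 Gm4665 intervals with a median mean fold of 18.0, 1 LacZ interval and 1 gene with a LacZ interval. With the lowest fold of repeated rows, the Sun5 mean fold was 34.3 and its rank 1620. With the geometric mean these were 94.6 and 11. Without each replicate in turn, the Sun5 mean ran from 88.7 to 99.4 and its rank from 9 to 14, the median over Gm4665 intervals from 10.6 to 13.7, and that over LacZ intervals from 7.66 to 14.2, lowest without replicate 1. For any single interval, Sun5 included, leaving out 1 of 3 replicates cannot move a mean by as much as its SD. That comparison therefore says nothing of stability. Among single intervals, the moves over 1.5 times were without replicate 1, at the first LacZ interval by coordinate of Syne1 (11.3, against 18.1) and of Syne2 (6.39, against 10.9). Positions are those of the full lists in every setting. Library depth was not used here, and LacZ signal at Gm4665 intervals was not measured. No paired analysis was possible because no result comes from a test and each list holds 1 set of positions for its 3 replicates.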
